A study of Mus musculus with 4 samples.

Results

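The genes described here are the expressed neighbours of the distal end of mouse chromosome 3, read in 4 lines of acute myeloid leukaemia (AML) cells from BXH-2 mice. They lie between positions 137527563 and 159598139 of chromosome 3 in the mm9 build, a stretch of 22.1 Mb that runs from H2afz to Wls. Of the 109 genes listed there, 46 had a mean of at least 1 FPKM (sequenced fragments scaled to transcript length and to library size) over the 4 libraries. Genes named Gbp, Slc, Zfp, Dnaj, Snor or Mir were left out by name, which removed 4 of the 46 and left 42 members out of 10066 expressed genes in all. The interval was selected on the ratio of resistant over parental FPKM in both lineages, so the ratios of its genes in those comparisons are given as a description and with no test.

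The resistant line B117H was derived from the sensitive parental line B117P, and the resistant line B140H from B140P. Resistance is to cytarabine (Ara-C), a nucleoside drug that is built into DNA and stops its copying, and its 50% inhibitory concentration (IC50) was about 160 µg/ml for B117H and 150 ng/ml for B117P in the labels. For B140H it was about 60 µg/ml, and for B140P 110 ng/ml. The labels record exposure to rising Ara-C for all 4 libraries, parental ones included, and do not give its length. All 4 lines were passaged without Ara-C, and each parental line with its resistant derivative is called a lineage, B117 or B140. Each line is 1 cell line with 1 library, so no value has a replicate error, no p-value is given, and a gene is called higher or lower by a rule of size alone.

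The spacing of low FPKM values gave an estimated 19700000 fragments for B117H, 22100000 for B117P, 24500000 for B140H and 19300000 for B140P. For a transcript of 2 kb, 3 fragments are worth 0.0613 to 0.0778 FPKM in these libraries. Of 16 myeloid leukaemia markers, 15 were listed, and 14 were at 1 FPKM or more in B117H, 15 in B117P, 9 in B140H and 10 in B140P. Kit and Cd34 were under 0.05 FPKM in both B140 lines, where Lyz2 and Elane were also under 1 FPKM. None of the T cell, stromal or epithelial markers reached 1 FPKM in any line. The B cell markers Cd79a and Cd79b were at 1 FPKM or more in both B140 lines, while Ms4a1 and Pax5 were not. The summed level of the 15 myeloid markers was 1687 FPKM in B117H and 3368 FPKM in B117P, and 910.5 FPKM in B140H and 939.8 FPKM in B140P, and its part in the results was not tested.

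A chromosome segment is not a pathway: its genes share a position, and their products work in different parts of the cell. The products of the 42 members include the histone variant H2A.Z, the cap-binding protein eIF4E, a general transcription factor, splicing factors, a catalytic subunit of protein kinase A and enzymes of fatty acid and sulfur amino acid metabolism. Neighbouring genes are usually set at levels of their own, so a shared shift is read from the ratio of each gene between lines and not from its level. In a bulk library, fewer cells carrying a transcript and less transcript per cell cannot be told apart.

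The members were higher in the resistant line in both lineages, at the median by 0.68 on the log2 scale in B117 and by 0.86 in B140. Ratios are log2 of (FPKM + 1) in the resistant over the parental line, which understates the change of genes near 1 FPKM. The quartiles of the members were 0.13 and 0.97 in B117 and 0.65 and 1.07 in B140. Over all 10066 expressed genes the median was -0.03 in B117 and 0.11 in B140, so the members stood 0.71 and 0.75 above the rest of the transcriptome. The quartiles were 0.84 apart in B117 for the members, against 0.43 for all expressed genes, and 0.42 apart in B140, again against 0.43. The spread of the B140 ratios within the segment was about that of the whole transcriptome, around a higher centre.

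Counted by direction, 34 of the 42 members were higher in B117H than in B117P, where 46.3% of all expressed genes were. In B140H 39 of the 42 were higher, where 63.0% of expressed genes were, and 34 were higher in both resistant lines, against 26.5% of expressed genes. The 34 include Usp33 and Wls, whose levels were near 0 in both lines of 1 lineage. At a rule of 1.5-fold, 24 members were higher in B117H (4.66% of expressed genes) and 33 in B140H (8.39%). Both conditions held for 22 members, or 52.4% of them, against 0.556% of expressed genes. Those 22 were among 56 genes in the genome that met both, of which 33 lay on other chromosomes and 1 on chromosome 3 before the interval. These shares went into the choice of the interval, so nothing further is read from them.

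At the 2-fold rule fewer members passed. In B117H 8 members were higher (1.41% of expressed genes) and 3 were lower (3.21%). In B140H 14 were higher (2.31%) and 1 was lower (1.63%). The 3 members past 2-fold in both were 2410004B18Rik, Pigk and Ankrd13c, where 12 genes of all expressed genes, 0.119%, were past it in both, 6 of them small RNA genes. Ankrd13c fell under 2-fold in B140 after centring on the median of all expressed genes (0.9905) and with TPM (0.9913). Both changes also took Bcl10 and Gng5 past 2-fold in B117, and so in both lineages. After centring the ratios in B117 and B140 were 1.0045 and 1.0737 for Bcl10, and 1.0167 and 1.102 for Gng5. With a pseudocount of 0.1, Znhit6, Bcl10, Ssx2ip, Acadm and Depdc1a were also past 2-fold in both lineages, Depdc1a with a listed 0 in B117P. In FPKM without a pseudocount, the median ratio of resistant over parental line was 1.80 in B117 over the 41 members above 0 in both lines, and 1.97 in B140 over 39.

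**Figure D1:**
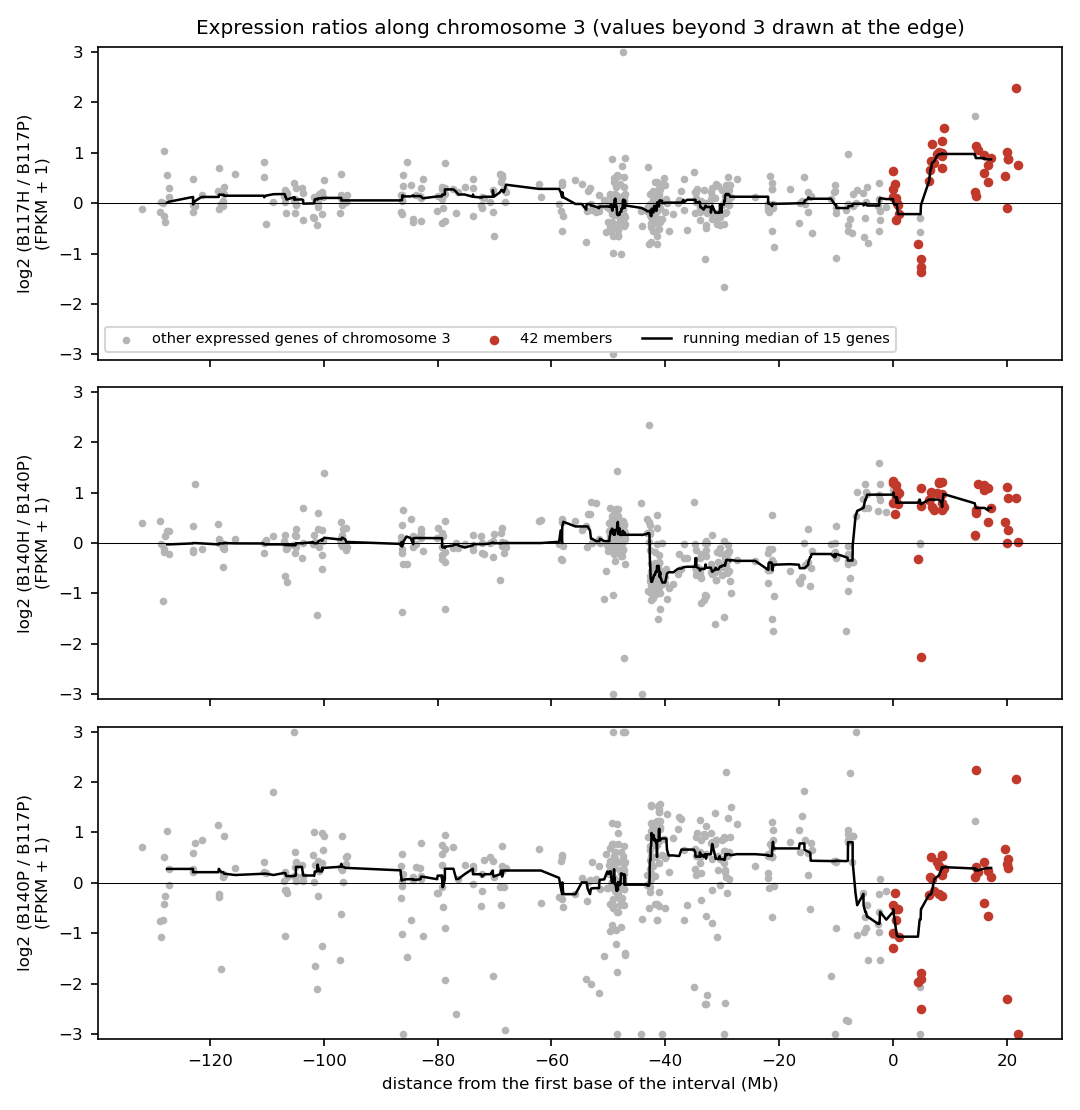
Log2 ratios of (FPKM + 1) of the expressed genes of chromosome 3 against their distance in Mb from the first base of the interval, for B117H over B117P (top), B140H over B140P (middle) and B140P over B117P (bottom). Red points are the 42 members, grey points the other expressed genes, and the line is the running median of 15 genes. In the top panel the line steps up inside the interval, after 4 members that lie below 0, while in the middle panel it is already near 1 before the interval starts.

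The 2 lineages did not share the same edge. In B117 the members from H2afz to Rap1gds1, 9 genes, had a median of 0.10, and the next 4, Pdlim5, Ccbl2, Gtf2b and Pkn2, were all lower in B117H, with a median of -1.19. From Lmo4 on, at position 143851494, 28 of the 29 members were higher in B117H, with a median of 0.88. Without a pseudocount the median ratio of those members was 2.01 in B117, over 28 genes above 0 in both lines, against 0.98 for the 13 before Lmo4. In B140 the same blocks had medians of 0.9995 and 0.20, the second with 2 of 4 members higher and a range of -2.26 to 1.09. The medians over all members on either side of Lmo4 were close in B140, at 0.91 for the 13 members before Lmo4 and 0.86 for the 29 from it on, with median ratios of 1.999 and 1.97 without a pseudocount. The division at Lmo4 was made after the values were seen.

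The stretch from Lmo4 to Prkacb held the most members. All of its 13 genes were higher in both resistant lines, with a median of 0.97 and a range of 0.44 to 1.49 in B117, and a median of 0.86 and a range of 0.66 to 1.21 in B140. Further on, the groups from Fubp1 to Pigk, from Rabggtb to Fpgt and from Zranb2 to Lrrc40 had medians of 0.64, 0.75 and 0.87 in B117 and of 0.62, 1.05 and 0.41 in B140. Across the 42 members, ratios of the lineages had a Spearman correlation of 0.21 (Pearson 0.38), and across the 29 from Lmo4 on one of 0.47 (Pearson 0.44). These are correlations across genes, which share libraries and are not independent.

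In B140 the higher ratios began before the interval. The 18 expressed genes between 130 Mb and H2afz had a median of 0.86 in B140 and -0.05 in B117, and 15 of them were higher in B140H. The change of sign fell between Rpl34 and Hadh. Rpl34 was at 54.4 FPKM in B140H and 70.6 FPKM in B140P. Rpl34 shares its listed span with the pseudogene Rpl34-ps1, so its reads may be divided. Hadh, which was listed at 0 in both B117 lines, was at 24.7 FPKM in B140H and 16.8 FPKM in B140P. Papss1, the next expressed gene, makes the sulfate donor PAPS and was at 15.8 FPKM in B140H and 7.29 FPKM in B140P. Between 95 and 130 Mb, 10 of 159 genes were higher in B140H and the median was -0.49, while B117 was at -0.01 there. The first 95 Mb of the chromosome, with 244 genes, had medians of 0.02 in B117 and 0.08 in B140. These limits were also set after the values were seen.

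Just outside the interval, Ppp3ca, the catalytic subunit of calcineurin, was at 19.7 FPKM in B117H and 20.8 FPKM in B117P, and at 28.9 FPKM in B140H and 18.6 FPKM in B140P. Nfkb1, which encodes the p105 and p50 proteins of the NF-kB family, was at 43.9 FPKM in B117H and 49.0 FPKM in B117P, and at 38.1 FPKM in B140H and 16.2 FPKM in B140P. Just inside, H2afz showed the same division, with little difference in B117 and a ratio above 2-fold in B140.

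Among the members, the gene of the histone variant H2A.Z had the highest level. H2afz was at 739 FPKM in B117H and 679 FPKM in B117P, and at 794 FPKM in B140H and 339.8 FPKM in B140P, log2 ratios of 0.12 and 1.22. B140P stood apart below the other 3 lines. Depdc1a, a gene linked to mitosis, was at 3.87 FPKM in B117H while B117P had a listed value of 0, and at 6.69 FPKM in B140H and 3.16 FPKM in B140P. A listed 0 may be an estimate that failed, so no ratio without a pseudocount is given for B117. Ssx2ip, a centrosome protein, was at 11.1 FPKM in B117H and 5.30 FPKM in B117P, and at 9.30 FPKM in B140H and 4.25 FPKM in B140P. Odf2l, another centrosome protein, had ratios of 0.80 in B117 and 0.66 in B140. All 4 members of this group were higher in both resistant lines, against 26.5% of expressed genes. Each passed the 2-fold rule in at most 1 lineage.

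The translation genes lie in the first stretch, with log2 ratios of 0.00 and -0.33 in B117 and of 1.03 and 1.15 in B140. Eif4e, whose product binds the cap of messenger RNA, was at 43.2 FPKM in B117H and 43.1 FPKM in B117P, and at 61.7 FPKM in B140H and 29.8 FPKM in B140P. Metap1, a methionine aminopeptidase that trims new proteins, was at 20.1 FPKM in B117H and 25.5 FPKM in B117P, and at 34.4 FPKM in B140H and 14.9 FPKM in B140P. Both passed the 2-fold rule in B140, but Eif4e did not after centring (0.91) or with TPM (0.88), and the difference between the lineages was not tested.

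RNA processing and transcription genes made up 9 members, with medians of 0.55 in B117 and 0.79 in B140. In B117H 2 of them were past 2-fold higher and 1 lower, and in B140H 1 was higher and none lower. Of expressed genes, 1.41% were at least 2-fold higher and 3.21% lower in B117H, and 2.31% and 1.63% in B140H. Rpf1, a factor of large ribosomal subunit assembly, was at 42.2 FPKM in B117H and 17.3 FPKM in B117P, and at 45.2 FPKM in B140H and 25.8 FPKM in B140P. Zzz3, a subunit of a histone acetyltransferase complex, had ratios of 1.13 in B117 and 0.65 in B140. Srsf11, a splicing factor, was at 65.9 FPKM in B117H and 35.4 FPKM in B117P, and at 82.4 FPKM in B140H and 43.7 FPKM in B140P. For Rpf1 and Srsf11 each resistant line was above both parental lines.

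The group also held Zranb2, Fubp1, Gtf2b, Znhit6, Lmo4 and Tyw3. Zranb2, a zinc finger protein of splicing, was at 35.6 FPKM in B117H and 24.0 FPKM in B117P, and at 52.2 FPKM in B140H and 39.0 FPKM in B140P. Fubp1, a single-stranded DNA-binding protein known as a regulator of Myc, was nearly level, with ratios of 0.22 in B117 and 0.17 in B140. Gtf2b, which encodes the general transcription factor TFIIB, was at 43.6 FPKM in B117H and 113 FPKM in B117P, and at 41.8 FPKM in B140H and 19.1 FPKM in B140P. Its ratios were -1.36 in B117 and 1.09 in B140, so the parental lines were far apart and the resistant lines close together. Znhit6, an assembly factor of box C/D small nucleolar ribonucleoproteins, had ratios of 0.97 in B117 and 0.99 in B140. Lmo4, a LIM-only transcriptional cofactor, had ratios of 0.44 in B117 and 0.86 in B140.

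**Figure D2:**
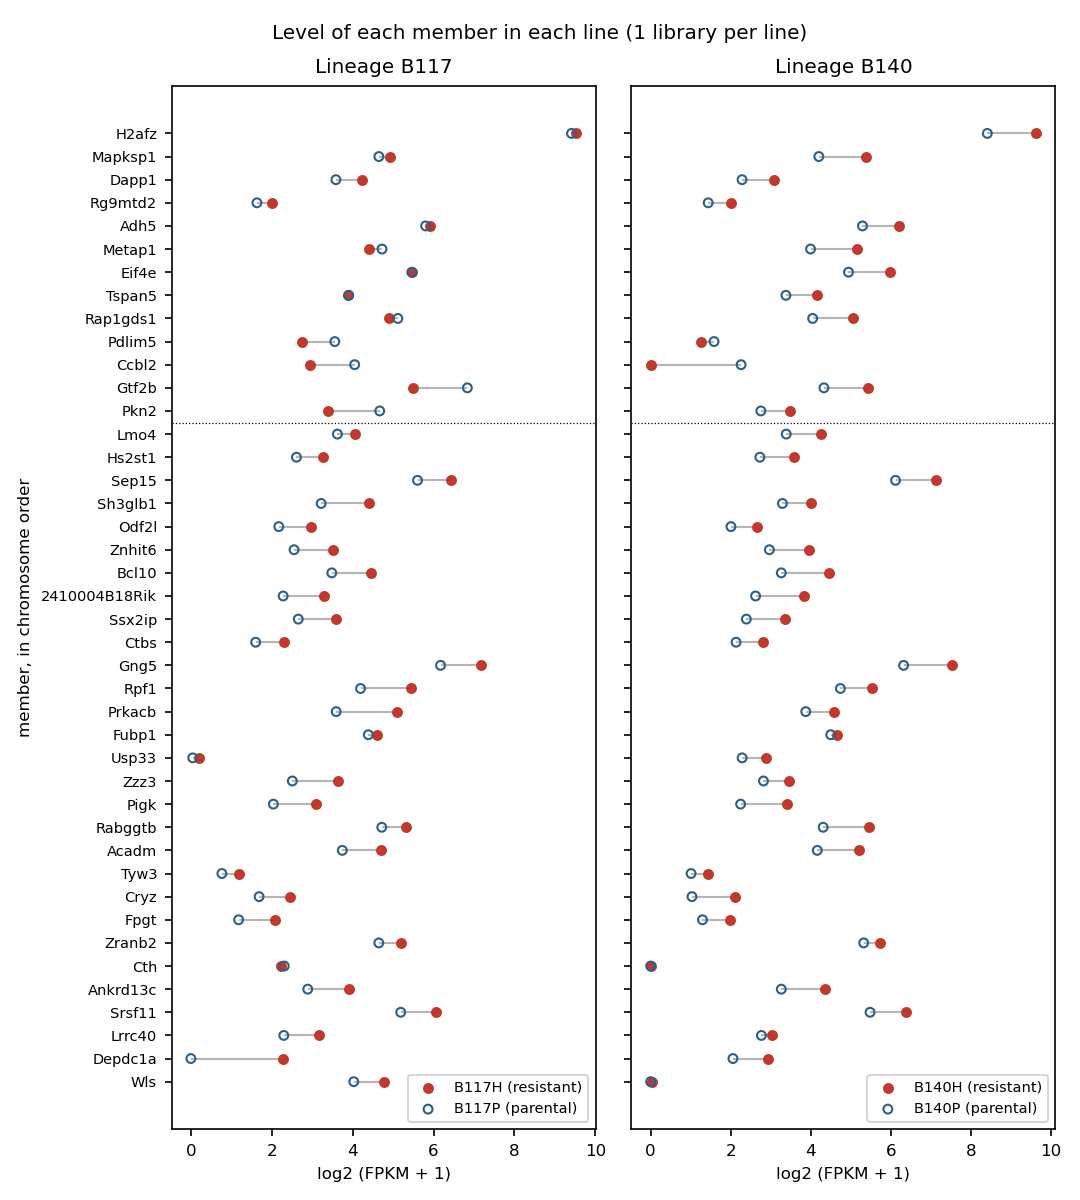
Level of each of the 42 members, in chromosome order from top to bottom, as log2 (FPKM + 1) in the resistant line (filled red) and the parental line (open blue) of lineage B117 (left) and B140 (right), 1 library each. Below the dotted line, which marks Lmo4, the red points lie right of the blue ones in both panels for 28 of 29 members, while above it most pairs are close together or reversed on the left and apart on the right.

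Of the signalling proteins, 5 of 9 members were higher in B117H and 8 of 9 in B140H. Of all expressed genes, 46.3% and 63.0% were higher in these lines. Prkacb, a catalytic subunit of protein kinase A, was at 32.9 FPKM in B117H and 11.1 FPKM in B117P, and at 23.1 FPKM in B140H and 13.7 FPKM in B140P. Its ratio of 1.49 in B117 was the largest of the members above 0 in every line. Gng5, a gamma subunit of heterotrimeric G proteins, was at 142 FPKM in B117H and 71.1 FPKM in B117P, and at 184 FPKM in B140H and 78.9 FPKM in B140P. A pseudogene, Gng5-ps, is annotated, so its reads may be shared. Bcl10, which links antigen receptors to NF-kB activation, was at 21.0 FPKM in B117H and 10.2 FPKM in B117P, and at 20.9 FPKM in B140H and 8.61 FPKM in B140P. The resistant lines were above both parental lines for all 3.

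Of the signalling genes before Lmo4, all but Dapp1 were lower in B117H than in B117P, Tspan5 by a margin whose sign depends on the scaling. Pkn2, a serine/threonine protein kinase, was at 9.53 FPKM in B117H and 24.4 FPKM in B117P, and at 10.2 FPKM in B140H and 5.74 FPKM in B140P. Pdlim5, a PDZ and LIM domain scaffold, was lower in both resistant lines, at 5.71 FPKM in B117H and 10.8 FPKM in B117P, and at 1.39 FPKM in B140H and 2.0 FPKM in B140P. Rap1gds1, which promotes nucleotide exchange on small GTPases, was at 28.9 FPKM in B117H and 33.7 FPKM in B117P, and at 32.1 FPKM in B140H and 15.5 FPKM in B140P. Dapp1, an adaptor that binds phosphoinositides, was higher in both resistant lines, with ratios of 0.64 in B117 and 0.80 in B140. Tspan5, a tetraspanin, had ratios of -0.03 in B117, a sign that turned after the libraries were centred or scaled to TPM, and of 0.77 in B140.

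**Figure D3:**
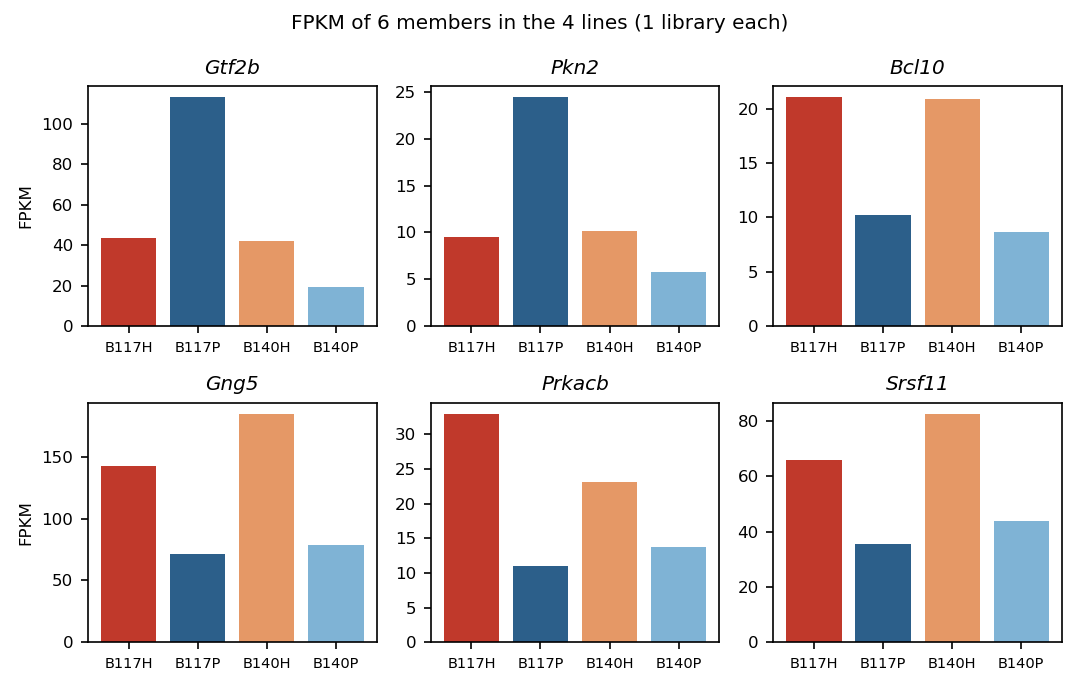
FPKM of 6 members in B117H, B117P, B140H and B140P, 1 library each, with every axis starting at 0. Gtf2b and Pkn2 are highest in B117P and lowest in B140P, while Bcl10, Gng5, Prkacb and Srsf11 are higher in each resistant line than in either parental line.

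The 8 members of membrane traffic, lysosome and protein handling had medians of 0.72 in B117 and 0.87 in B140. Sep15, a selenoprotein of the endoplasmic reticulum, was at 85.8 FPKM in B117H and 47.6 FPKM in B117P, and at 140.015 FPKM in B140H and 68.5 FPKM in B140P. Sh3glb1, an endophilin that takes part in autophagy, was at 20.2 FPKM in B117H and 8.33 FPKM in B117P, and at 15.1 FPKM in B140H and 8.80 FPKM in B140P. Pigk, a subunit of the enzyme that attaches glycosylphosphatidylinositol anchors to proteins, was at 7.58 FPKM in B117H and 3.11 FPKM in B117P, and at 9.63 FPKM in B140H and 3.75 FPKM in B140P. Each of these had its 2 resistant lines above its 2 parental lines.

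Within the same group, Mapksp1, a scaffold of MAP kinase and mTORC1 signalling on late endosomes, was at 29.4 FPKM in B117H and 24.1 FPKM in B117P, and at 40.8 FPKM in B140H and 17.4 FPKM in B140P. Rabggtb, a subunit of the enzyme that attaches lipids to Rab GTPases, was at 38.9 FPKM in B117H and 25.3 FPKM in B117P, and at 43.2 FPKM in B140H and 18.9 FPKM in B140P. Its listed span holds small nucleolar RNA genes, and those of Eif4e, Ctbs, Zzz3 and Zranb2 also overlap another listed gene. Ctbs, a lysosomal enzyme that breaks down glycoprotein sugars, had ratios of 0.70 in B117 and 0.66 in B140. For 2 members a ratio could be read in 1 lineage only. Wls, which escorts Wnt proteins to the cell surface, was at 26.4 FPKM in B117H and 15.3 FPKM in B117P, and at 0.0154 FPKM in B140H and 0 in B140P. Usp33, a deubiquitinase, was at 0.144 FPKM in B117H and 0.0325 FPKM in B117P, near the floor, and at 6.38 FPKM in B140H and 3.88 FPKM in B140P.

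Among the 7 metabolic enzymes, 5 were higher in each resistant line, against 46.3% of expressed genes in B117H and 63.0% in B140H. Acadm, the medium-chain acyl-CoA dehydrogenase of fatty acid oxidation, was at 24.9 FPKM in B117H and 12.4 FPKM in B117P, and at 36.1 FPKM in B140H and 16.9 FPKM in B140P. Adh5, which clears formaldehyde with glutathione, was at 58.9 FPKM in B117H and 54.8 FPKM in B117P, and at 72.5 FPKM in B140H and 38.2 FPKM in B140P. Its ratios were 0.10 in B117 and 0.91 in B140. Hs2st1, a sulfotransferase of heparan sulfate synthesis, was at 8.67 FPKM in B117H and 5.10 FPKM in B117P, and at 11.1 FPKM in B140H and 5.63 FPKM in B140P. Fpgt, which makes GDP-fucose from fucose phosphate, had ratios of 0.90 in B117 and 0.70 in B140. Outside these role groups, Rg9mtd2, a tRNA methyltransferase, had ratios of 0.38 in B117 and 0.57 in B140, and Lrrc40 ratios of 0.87 and 0.26.

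The pair of Cryz, a quinone reductase, and Tyw3, a tRNA-modifying enzyme, shares 1 listed span, so their values depend on how reads were divided. Cryz was at 4.43 FPKM in B117H and 2.22 FPKM in B117P, and at 3.33 FPKM in B140H and 1.04 FPKM in B140P. Tyw3, the member nearest the minimum with a mean of 1.17 FPKM, had ratios of 0.41 in B117 and 0.43 in B140. Cth, cystathionine gamma-lyase, which makes cysteine, had a mean of 1.91 FPKM. It was at 3.67 FPKM in B117H and 3.95 FPKM in B117P, and listed at 0 in both B140 lines. Ccbl2, a kynurenine aminotransferase, was lower in both resistant lines, at 6.69 FPKM in B117H and 15.5 FPKM in B117P, and listed at 0 in B140H with 3.79 FPKM in B140P. Its ratios were -1.10 in B117 and -2.26 in B140, the second of which rests on that listed 0.

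**Figure D4:**
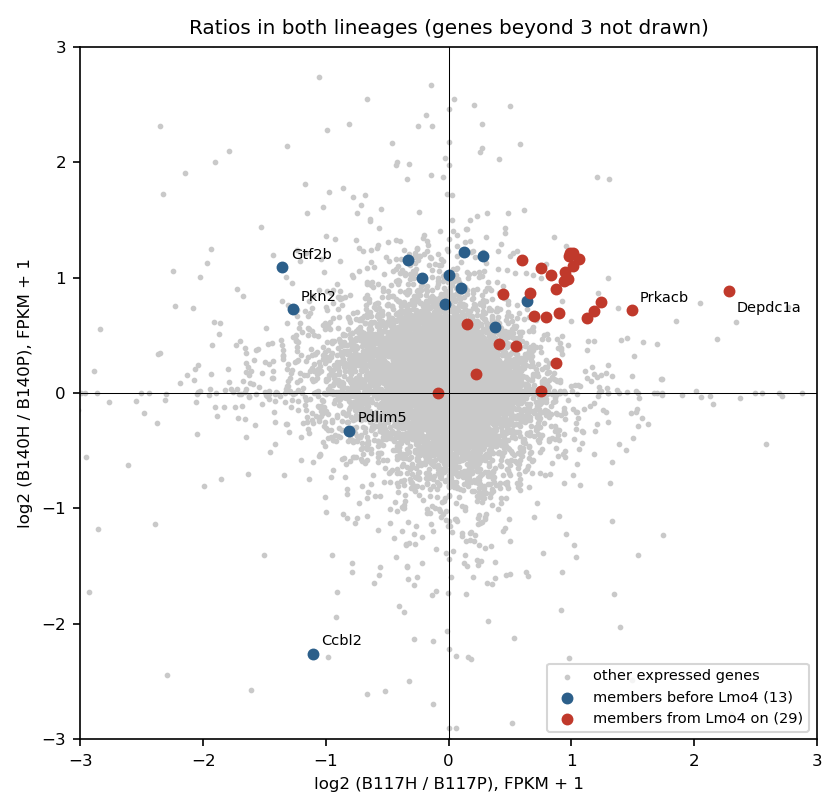
Log2 ratio of (FPKM + 1) in B117H over B117P (x axis) against that in B140H over B140P (y axis), with the 13 members before Lmo4 in blue, the 29 members from Lmo4 on in red and the other expressed genes in grey. Most red points lie up and right of the grey centre, while the blue ones are spread from left to right at a raised height, apart from Ccbl2 and Pdlim5.

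The promoters of 4 members are shown because, among members with a promoter entry and no overlap with another listed gene, their smaller ratio of the 2 lineages was the largest. They are 2410004B18Rik, with 8.84 FPKM in B117H and 3.86 FPKM in B117P, and 13.2 FPKM in B140H and 5.16 FPKM in B140P, Ankrd13c, an ankyrin repeat protein gene, with 14.0 FPKM in B117H and 6.41 FPKM in B117P, and 19.6 FPKM in B140H and 8.61 FPKM in B140P, and Gng5 and Bcl10, given above. The sequences run from 250 bases before to 50 after the start, are from RefSeq on GRCm38.p6 and not on mm9, and all lie on the plus strand of chromosome 3. They span 157946750 to 157947049 for Ankrd13c, 145937764 to 145938063 for 2410004B18Rik, 146499586 to 146499885 for Gng5 and 145924012 to 145924311 for Bcl10. Capitals mark motif matches on either strand, among the GC box GGGCGG, the CCAAT box CCAAT, the TATA box TATAAA, the E-box CACGTG, the cyclic AMP response element TGACGTCA, an ETS-type motif CCGGAAG and a YY1-type motif AAGATGGC.
Ankrd13c: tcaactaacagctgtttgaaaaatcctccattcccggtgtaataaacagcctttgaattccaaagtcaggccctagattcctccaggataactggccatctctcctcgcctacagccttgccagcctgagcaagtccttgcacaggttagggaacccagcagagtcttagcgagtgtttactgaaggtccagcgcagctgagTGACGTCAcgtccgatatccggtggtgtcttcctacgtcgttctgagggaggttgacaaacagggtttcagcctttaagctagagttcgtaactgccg
2410004B18Rik: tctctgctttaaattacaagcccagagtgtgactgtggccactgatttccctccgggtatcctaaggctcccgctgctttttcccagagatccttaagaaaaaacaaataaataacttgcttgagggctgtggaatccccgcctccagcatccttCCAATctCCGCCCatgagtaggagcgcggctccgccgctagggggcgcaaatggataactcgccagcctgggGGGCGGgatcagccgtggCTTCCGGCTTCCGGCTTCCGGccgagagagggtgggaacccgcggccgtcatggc
Gng5: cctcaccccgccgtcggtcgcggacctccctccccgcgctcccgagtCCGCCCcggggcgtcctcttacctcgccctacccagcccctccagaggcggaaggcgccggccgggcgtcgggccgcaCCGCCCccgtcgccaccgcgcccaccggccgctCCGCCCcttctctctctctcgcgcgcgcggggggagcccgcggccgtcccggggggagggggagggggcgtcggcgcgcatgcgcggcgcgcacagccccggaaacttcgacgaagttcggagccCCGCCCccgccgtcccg
Bcl10: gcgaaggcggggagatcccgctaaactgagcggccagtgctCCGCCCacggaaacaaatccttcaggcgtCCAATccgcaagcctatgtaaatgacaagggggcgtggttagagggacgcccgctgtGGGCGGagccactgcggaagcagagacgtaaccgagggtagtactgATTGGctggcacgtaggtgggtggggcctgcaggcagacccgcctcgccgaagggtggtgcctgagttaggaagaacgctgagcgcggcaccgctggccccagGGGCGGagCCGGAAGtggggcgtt

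None of the 7 motifs was found in all 4 promoters. The Ankrd13c window holds 1 cyclic AMP response element and 12 CG dinucleotides. The Gng5 window holds 4 GC boxes and 52 CG dinucleotides, the most among the 31 members with a window, and the Bcl10 window 3 GC boxes, 2 CCAAT boxes and 1 ETS-type motif. The 2410004B18Rik window holds 2 GC boxes, 1 CCAAT box and 3 ETS-type motifs. Of the 42 members, 31 were matched by symbol to a promoter of this kind. A GC box stood in 74.2% of those 31, against 35.7% of all 32851 promoters in the RefSeq table, and a TATA box in 3.23% against 13.6%. A CCAAT box stood in 35.5% against 37.4%, an E-box in 3.23% against 7.15%, and a cyclic AMP response element in 3.23% against 1.79%. An ETS-type motif stood in 16.1% against 8.86%, and a YY1-type motif in 3.23% against 2.75%. Members were counted with 1 promoter per gene, while the table was counted by promoter with no such limit. All of the members are expressed, whereas the table also holds promoters of genes that were not. The median number of CG dinucleotides was 25 in the members and 7 in the table. A match is a string of letters and does not show that a factor binds there.

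The comparison of the parental lines did not enter the choice of the interval but shares its libraries. The parental lines differed both before the segment and at its start. The 18 expressed genes between 130 Mb and H2afz had a median log2 ratio of -0.51 for B140P over B117P, and 5 of them were higher in B140P. Between 95 and 130 Mb the median was 0.62, and 127 of 159 genes were higher in B140P. All 13 members before Lmo4 were lower in B140P than in B117P, with a median of -0.997 and a range of -2.51 to -0.20. From Lmo4 on 8 of 29 were lower and the median was 0.24. Over all 42 members the median was -0.05, against -0.0002 over all expressed genes. In all, 8 members were at least 2-fold lower in B140P (10.8% of expressed genes) and 2 were higher (5.83%). The lower ones were Dapp1, Rap1gds1, Pdlim5, Ccbl2, Gtf2b, Pkn2, Cth and Wls, with log2 ratios of -1.30, -1.07, -1.97, -1.79, -2.51, -1.92, -2.31 and -4.03. The higher ones were Usp33 and Depdc1a, each of which was near 0 or listed at 0 in B117P. Usp33 met the minimum only through the B140 lines, so the direction of its ratio follows from that. Among the lower ones, Cth and Wls were listed at 0 in B140P. Both met the minimum only through the B117 lines, so the direction of their ratios follows from that. The lineages may have been normalised separately, since the listed spans of 6 genes, none of them a member, differ between them and none differs within one, so these levels carry that limit.

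Set side by side, the summed FPKM of the 13 members before Lmo4 was 280 in B117H and 372 in B117P without H2afz, and 322 in B140H and 162 in B140P. For the 29 members from Lmo4 on it was 683 in B117H and 360.3 in B117P, and 812 in B140H and 417 in B140P. In these sums B140P alone was low before Lmo4, and from Lmo4 on both parental lines were low and both resistant lines high. Single members before Lmo4 differed from their sum. B140H was the lowest line for Pdlim5 and Ccbl2, and B140P for every other member there. For Dapp1, Pdlim5, Ccbl2 and Gtf2b both B140 lines were below both B117 lines. Pdlim5, Ccbl2, Gtf2b and Pkn2 were highest in B117P. The limit on levels between lineages applies here too.

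The 4 expressed genes left out by name were Dnajb14, Gbp6, Gbp3 and Dnajb4. Gbp3 and Gbp6, interferon-induced guanylate-binding proteins whose loci lie between Pdlim5 and Ccbl2, had ratios of -0.57 and -0.28 in B117, as their neighbours did in sign, and were under 0.05 FPKM in both B140 lines. Dnajb4, a heat shock protein 40 family member, was at 3.43 FPKM in B117H and 0.338 FPKM in B117P, and at 2.42 FPKM in B140H and 2.13 FPKM in B140P. A further 63 genes of the interval were under 1 FPKM on average, 8 of them also left out by name. Mttp, a lipid transfer protein gene with a mean of 0.457 FPKM, and Spata1, with 0.389 FPKM, were the highest of the other 55. In the list of receptors with 7 genes, the 6 that lie in the interval were all under the minimum.

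In the rest of the series, no other chromosome reached the median of the members in either lineage. The medians of the other 19 chromosomes ran from -0.47 for chromosome 16 to 0.44 for chromosome 12 in B117, and from -0.24 for chromosome 14 to 0.25 for chromosome 5 in B140. Of 9781 running windows of 15 neighbouring expressed genes, 80 had a median of at least 1.5-fold higher in B117H, 58 on chromosome 12 and 22 on chromosome 3. In B140H there were 160, of which 107 were on chromosome 5 and 53 on chromosome 3. The 22 windows past that level in both lineages were all on chromosome 3. Windows overlap, so their number is not a count of separate events, and whole chromosomes and windows hold different numbers of genes. The interval was selected on these same ratios, so its standing above other chromosomes and windows is a description and no support.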

How the data were processed

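RNA sequencing of 4 cell lines with 1 library each was analysed from the FPKM values per gene that the authors deposited, with mm9 coordinates. The tools named in the submitters' processing notes are TopHat2 2.0.4 and Cuffdiff, and the build is mm9. Other settings are not given in the sources used here. Listed starts were read as counted from 0, and 1 was added. Read counts were not used here, and no count model was fitted. The members and gene lists were chosen with earlier results of these data known.

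Genes with a mean of at least 1 FPKM over the 4 libraries were compared as log2 ratios with a pseudocount of 1, and called at 2-fold or 1.5-fold. Lists were described by counts and medians, and no test was run because the interval was selected on these ratios and each line has 1 library. Library depth is an estimate: FPKM was multiplied by transcript length (GENCODE M21, GRCm38) in 649 genes with 1 transcript of 3 kb or more, and the depth that best made low values whole was taken between 10000000 and 30000000 fragments. Between 67.9% and 78.0% of low values lay within 0.15 of a whole fragment, which is no independent check, as the unit came from the same values.

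A rule set which genes the text names: members past 2-fold in a lineage or between parents, the 10 largest and 5 smallest mean ratios, the 5 highest levels, those at the edges of the interval and of the minimum, up to 4 per role list, and 3 left out by name. Lmo4, Fubp1, Tspan5, Ctbs, Fpgt, Rg9mtd2, Lrrc40, Rpl34, Papss1, Hadh and Dnajb14 were named for their position or role after their values were seen. The steps were tested on simulated data. Alternatives were a pseudocount of 0.1, no minimum, a minimum of 5 FPKM, centring, TPM without small RNA genes, all genes of the interval, its first and last 21 members, members without overlap, members above 0 in every library, and 1.5-fold and 4-fold rules. With no minimum, genes listed at 0 in every library were still left out. A split at Lmo4 was added after seeing the data. Versions were pandas 2.3.3, numpy 2.4.6 and matplotlib 3.10.9, run in Python 3.11.15.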

Additional observations from a re-analysis of the deposited data

Results flagged for a closer look

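For 3 members the resistant line was higher than its parent in B140 and lower in B117, with at least 1 of the ratios past 2-fold. The log2 ratio in B140 minus that in B117 was 2.45 for Gtf2b, 2.0002 for Pkn2 and 1.48 for Metap1. All 3 lie before Lmo4. With 1 library per line, none of these differences was tested.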

How the results depend on the processing

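No test was run, paired or not, because the interval was selected on these ratios. The medians of the members were above 0 in both lineages under every alternative except that of the 13 members before Lmo4 in B117, at -0.0257. Other values for B117 were a median of 0.25 with no minimum FPKM (60 genes) and 0.28 in the first 21 members. The 60 genes leave out those of the interval listed at 0 in every library, whose ratios are 0, so that alternative does not cover all listed genes. Members past the rule and higher in B117H, 8 as reported, were 14 with a pseudocount of 0.1, 14 with TPM, 24 at 1.5-fold, 1 at 4-fold, 2 among the first 21 members and 0 before Lmo4. Those higher in B140H, 14 as reported, were 18 with a pseudocount of 0.1, 8 after centring and 9 with TPM. They were 33 at 1.5-fold and 0 at 4-fold. Among the first and last 21 members they were 8 and 6, and before and from Lmo4 on 5 and 9. Centring and TPM both took Eif4e, Gtf2b, Sep15, Acadm and Ankrd13c below 2-fold in B140, and centring also Cryz. In B117 both took Znhit6, Bcl10 and Gng5 past 2-fold, and TPM also Ssx2ip, Acadm and Fpgt. The share higher in both was 63.3% with no minimum, 95.2% in the last 21 members, and 46.2% and 96.6% before and from Lmo4 on. Between the parental lines the median was -0.18 with all genes of the interval, -0.17 without overlaps, 0.0923 for members above 0 in every library, -0.51 and 0.28 in the first and last 21, and -0.997 and 0.24 before and from Lmo4 on. Members higher in B140P than in B117P, 2 as reported, were 0 at a minimum of 5 FPKM, 0 among the first 21 and before Lmo4, and 1 above 0 in every library. The sign of single members turned for Tspan5 in B117 (centring and TPM) and for Cth and Wls in B140 (centring). The depth limits Usp33 in B117, Wls and Cth in B140 and each value listed at 0. The cause of these shifts was not tested.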
